A study of Mus musculus with 2 samples.

Results

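Procr, Slamf1, Ly6a, Esam, Kit, Cd48, Cd34, Flt3, Itga6 and Tek encode the surface proteins by which blood stem and progenitor cells are most often told apart in the mouse. The 10 genes were taken by symbol from the 32285 genes of the count matrices of both libraries, and all 10 were found in each. The cells were mouse hematopoietic stem cells, labelled as from blood, that had been in suspension culture for 48 h, either with RO-3066 or with dimethyl sulfoxide (DMSO) as the vehicle. RO-3066 is the only name the labels have for the compound; its target and dose are not among them, nor are the strain, age or sex of the mice. RNA was counted cell by cell in droplets from transcript 3' ends, with 1 library of RO-3066 cells and 1 library of DMSO cells. No difference between them can therefore be tested, and each interval below is a 95% interval of counting error only, which contains no spread between cultures or animals.

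The genes fall into a few families. Cd48 and Slamf1 (CD150) are members of the SLAM family of receptors, and mouse stem cells are commonly sorted as carrying CD150 and lacking CD48, which is found on many progenitors. Kit, Flt3 and Tek (Tie2) are receptor tyrosine kinases for stem cell factor, Flt3 ligand and angiopoietins; Kit marks stem cells and progenitors alike, while Flt3 appears on multipotent progenitors with lymphoid potential. Ly6a (Sca-1) is anchored to the membrane by a lipid, and both Ly6a and Procr (EPCR) are used to enrich for stem cells. Esam, Itga6 (CD49f) and Cd34 act in adhesion, and the most primitive adult mouse stem cells carry little CD34 protein. These uses rest on surface protein, whereas the values here are RNA.

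After filtering, 3683 RO-3066 cells with 164892158 unique molecular identifiers (UMIs, counted molecules) and 5833 DMSO cells with 175638578 UMIs remained. The RO-3066 cells were deeper, with a median of 34907 UMIs and 5725 genes per cell, against 24093 UMIs and 4776 genes in DMSO cells. The median mitochondrial share was 1.70% in RO-3066 and 1.49% in DMSO cells, and 7 cell barcodes occurred in both libraries. Because of the gap in depth, a level is given as the UMIs of a gene per 1000000 UMIs summed over all cells (CPM), which is a share of the cells' RNA and not an amount per cell. Shares of cells with at least 1 UMI were taken after each cell was thinned at random to 10000 UMIs, which left out 124 RO-3066 and 81 DMSO cells that had fewer. Ptprc (CD45), carried by nearly all blood cells, stood at 59.3 CPM in RO-3066 and 47.2 CPM in DMSO cells.

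Between the treatments, Cd48 was lower and Tek and Esam were higher in RO-3066 cells by at least 1.5-fold. This fold was applied to CPM plus 1, and a gene was compared when it reached 5 CPM in one library or the other. Of the 8 marker genes that reached this level, 2 were higher, against 5.41% of all 9339 genes compared, and 1 was lower, against 2.2% of all genes. Procr and Flt3 stayed under 5 CPM and were not counted. The median log2 ratio of the 8 genes was -0.01, beside -0.00 over all genes compared.

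Cd48 had the largest ratio of the 10 in either direction on the log2 scale. Its level was 16.1 CPM in RO-3066 cells and 46.1 CPM in DMSO cells, a ratio of 0.349 (0.334 to 0.364). At equal depth, 12.3% of RO-3066 cells and 29.5% of DMSO cells had a Cd48 UMI, and without thinning the shares were 27.5% and 46.0%. Cells with at least 3 Cd48 UMIs at equal depth made up 0.955% of RO-3066 and 6.38% of DMSO cells. Slamf1, the other SLAM receptor, was close between the libraries, at 17.2 CPM in RO-3066 and 17.8 CPM in DMSO cells, a ratio of 0.964 (0.916 to 1.01). A Slamf1 UMI was found in 12.2% of RO-3066 and 13.8% of DMSO cells at equal depth, and in 37.0% and 31.1% without thinning.

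Cd48 and Slamf1 are neighbours on chromosome 1, both on the plus strand. In the GENCODE vM21 annotation of build mm10, Cd48 spans 171682009 to 171705258 and Slamf1 spans 171767127 to 171801184, with 61868 bases between them, and the positions given below are of the same annotation. The 250 bases before their RefSeq start sites (GRCm38.p6, the same build) are shown because these nearby genes of one family differed in their ratio, beside those of Tek, which had the highest ratio. Short core motifs of blood transcription factor families were searched on both strands and stand in capitals. They are GATAA, the core bound by GATA factors (TTATC on the other strand), GGAAG, a core bound by ETS factors (CTTCC on the other strand), and TGTGG, the core bound by RUNX factors (CCACA on the other strand).
Cd48 promoter, chr1:171681742-171681991, plus strand: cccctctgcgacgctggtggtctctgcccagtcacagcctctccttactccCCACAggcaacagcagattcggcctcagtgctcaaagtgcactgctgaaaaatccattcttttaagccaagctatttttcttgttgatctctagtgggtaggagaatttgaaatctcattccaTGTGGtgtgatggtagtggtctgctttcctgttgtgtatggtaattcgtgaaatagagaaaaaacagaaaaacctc
Slamf1 promoter, chr1:171766882-171767131, plus strand: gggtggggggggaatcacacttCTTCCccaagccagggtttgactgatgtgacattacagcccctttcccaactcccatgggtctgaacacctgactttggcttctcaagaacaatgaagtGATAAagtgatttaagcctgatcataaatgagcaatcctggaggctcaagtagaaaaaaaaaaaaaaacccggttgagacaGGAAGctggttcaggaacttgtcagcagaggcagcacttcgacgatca
Tek promoter, chr4:94739039-94739288, plus strand: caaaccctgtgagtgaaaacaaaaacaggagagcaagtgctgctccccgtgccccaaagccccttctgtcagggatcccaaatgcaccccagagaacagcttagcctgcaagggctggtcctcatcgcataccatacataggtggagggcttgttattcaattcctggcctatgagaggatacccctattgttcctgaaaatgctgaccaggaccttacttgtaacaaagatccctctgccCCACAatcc
The Cd48 window held 2 TGTGG matches and neither of the other motifs. In the Slamf1 window 1 GATAA and 2 GGAAG matches were found and no TGTGG. The Tek window held 1 TGTGG match only, and no matches overlapped. Of 32851 RefSeq promoter windows of the same length, 22.6% held GATAA, 64.1% held GGAAG and 49.3% held TGTGG, so each match is common and is given as a description of the letters only.

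Among the receptor tyrosine kinases, Tek and Kit stood higher in RO-3066 cells and Flt3 lower. Tek (chromosome 4, 94739289 to 94874976) stood at 7.31 CPM in RO-3066 and 3.14 CPM in DMSO cells, a ratio of 2.33 (2.10 to 2.58). Its UMIs were found in 6.04% of RO-3066 and 2.92% of DMSO cells at equal depth, and in 23.7% and 8.54% without thinning. Kit (chromosome 5, 75574916 to 75656722) stood at 101 CPM in RO-3066 and 68.6 CPM in DMSO cells. Its ratio of 1.47 (1.44 to 1.51) lay just under the fold counted as a change. With the deeper cells, the mean per cell was 4.53 Kit UMIs in RO-3066 and 2.07 in DMSO cells. A Kit UMI was found in 63.1% of RO-3066 and 50.2% of DMSO cells at equal depth, and in 90.8% and 77.2% without thinning. Flt3 (chromosome 5, 147330741 to 147400489) was sparse, with 387 UMIs or 2.35 CPM in RO-3066 and 524 UMIs or 2.98 CPM in DMSO cells, a ratio of 0.787 (0.688 to 0.899). Flt3 was found in 3.23% of RO-3066 and 3.72% of DMSO cells at equal depth, with intervals of 2.67 to 3.87% and 3.25 to 4.24% that overlap. Without thinning the order was the other way, at 9.07% and 7.39%. The antisense gene Gm26597, which overlaps Flt3, had 24 UMIs in RO-3066 and 29 UMIs in DMSO cells.

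The adhesion genes went different ways. Esam (chromosome 9, 37528078 to 37538319) stood at 27.9 CPM in RO-3066 and 17.5 CPM in DMSO cells, a ratio of 1.59 (1.52 to 1.67). It was found in 21.1% of RO-3066 and 15.8% of DMSO cells at equal depth, and in 54.8% and 33.4% without thinning. Esam passed 1.5-fold by a narrow margin, and with every cell at the same weight its log2 ratio was 0.51 and no longer counted. Cd34 (chromosome 1, 194938819 to 194961279), a sialomucin, was lower in level, at 54.2 CPM in RO-3066 and 68.2 CPM in DMSO cells, a ratio of 0.795 (0.774 to 0.817) that is short of 1.5-fold. The antisense gene Gm16897, which overlaps it, had 9 UMIs in RO-3066 and 12 UMIs in DMSO cells. The share of cells with a Cd34 UMI was 42.0% in RO-3066 and 45.2% in DMSO at equal depth, but 73.4% and 67.2% without thinning. Itga6 (chromosome 2, 71745616 to 71858416), the laminin receptor subunit alpha 6, was nearly equal, at 58.7 CPM in RO-3066 and 57.8 CPM in DMSO cells, with a ratio of 1.02 (0.989 to 1.05). An Itga6 UMI was found in 39.2% of RO-3066 and 34.1% of DMSO cells at equal depth, and in 75.1% and 61.0% without thinning.

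Of the markers Ly6a and Procr, Ly6a was lower in RO-3066 cells, short of the fold counted, and Procr was close between the libraries. Ly6a (chromosome 15, 74994877 to 74998031) stood at 14.0 CPM in RO-3066 and 20.1 CPM in DMSO cells, a ratio of 0.700 (0.664 to 0.738). The mean number of Ly6a UMIs per cell was nearly the same, 0.629 in RO-3066 and 0.604 in DMSO cells. At equal depth 15.8% of RO-3066 and 17.4% of DMSO cells had a Ly6a UMI, and without thinning 32.1% and 28.8%. The related Ly6c1 had 4 UMIs in RO-3066 and 13 UMIs in DMSO cells. Procr (chromosome 2, 155751117 to 155755471) stood at 4.23 CPM in RO-3066 and 4.53 CPM in DMSO cells, a ratio of 0.934 (0.842 to 1.04). Its share of cells at equal depth was 6.29% in RO-3066 and 5.75% in DMSO, the other way round from the CPM, so no order is read from it.

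**Figure D1:**
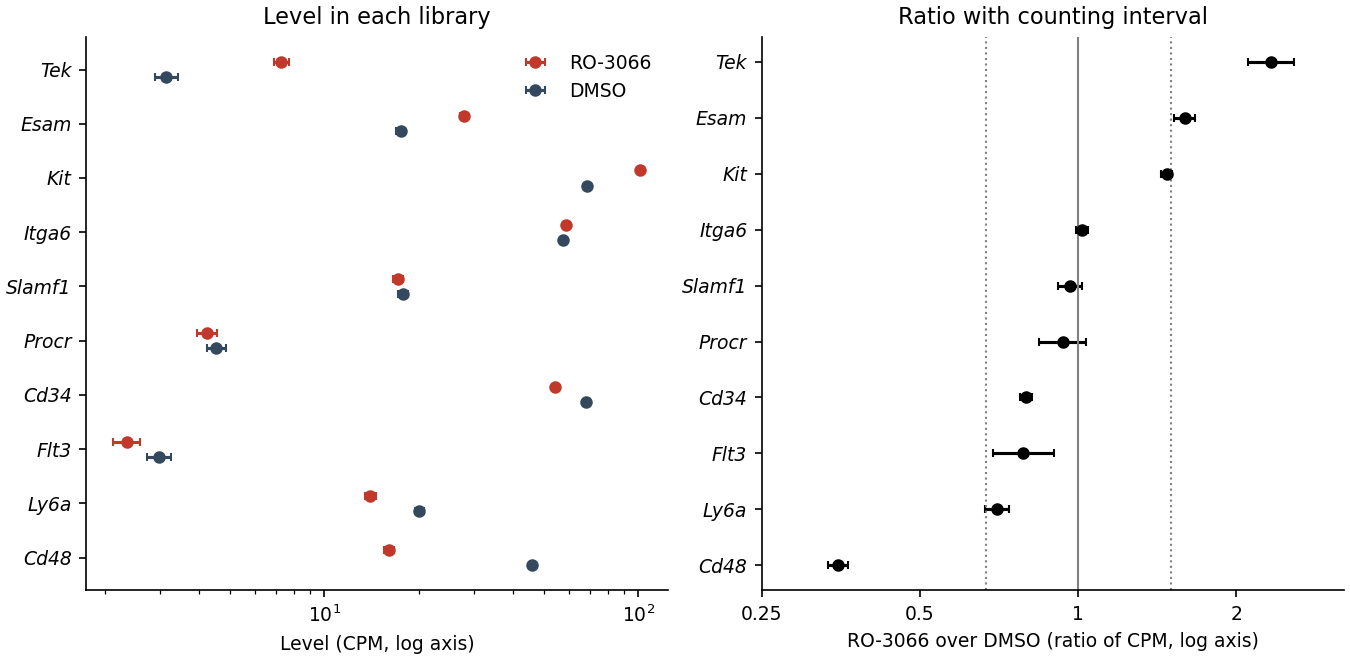
Left, level of each marker gene in CPM (log axis) in RO-3066 (red) and DMSO (blue) cells, with 95% counting intervals. Right, the ratio of RO-3066 over DMSO with its interval, where the dotted lines mark 1.5-fold; Tek (2.33) and Esam (1.59) lie above, Cd48 (0.349) below, and the other genes lie between.

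**Figure D2:**
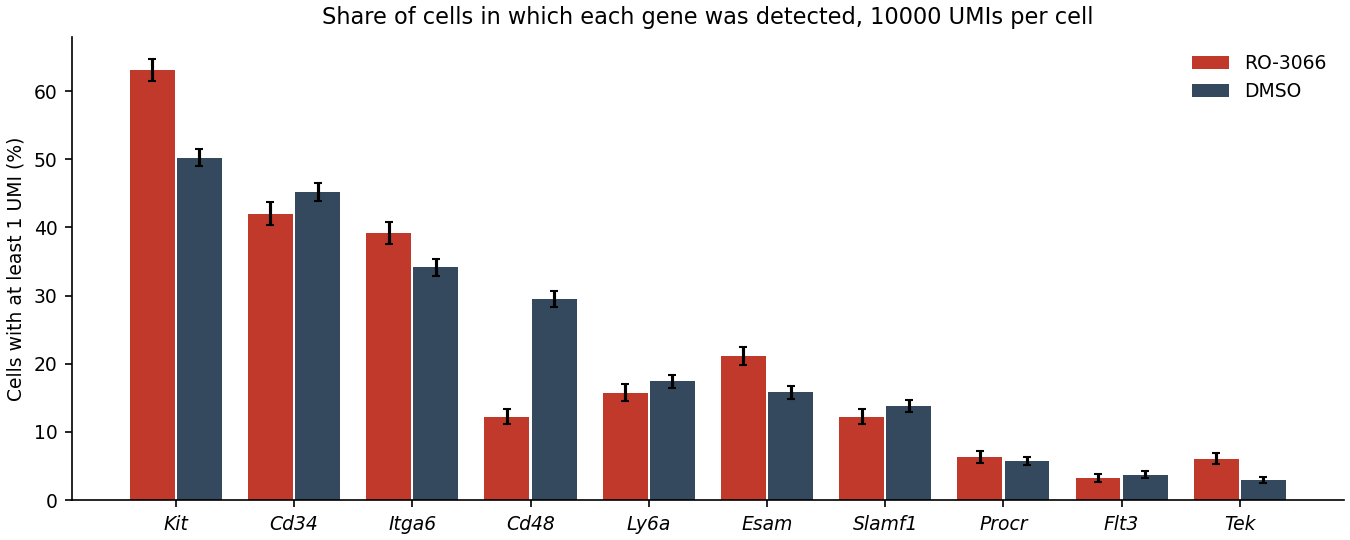
Share of cells with at least 1 UMI of each gene after thinning to 10000 UMIs per cell, in RO-3066 (red) and DMSO (blue) cells, with exact 95% binomial intervals. The bars of Cd48 are farthest apart, at 12.3% in RO-3066 and 29.5% in DMSO cells. Kit has the highest bars, at 63.1% in RO-3066 and 50.2% in DMSO cells.

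Cells were next ordered by Pf4, which encodes platelet factor 4 and marks the megakaryocyte lineage. Cells were put into 4 bands of the Pf4 share of their UMIs, with edges at the quartiles of DMSO cells (214, 568 and 2755 CPM). Band 1 to band 4 held 1351, 874, 717 and 741 RO-3066 cells, so the lowest band held 36.7% of RO-3066 cells, against 25% of DMSO cells. Depth moved with Pf4: the median UMIs per cell were 25250 in band 1 and 79406 in band 4 of RO-3066 cells, and 21522.5 and 33904 in DMSO cells. Its part in the levels below was not tested.

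In both libraries the marker genes split along Pf4. Procr, Ly6a, Kit, Cd48 and Cd34 were lower by at least 1.5-fold in band 4 than in band 1, and Slamf1 and Itga6 were higher. In RO-3066 cells 3 of the 9 genes compared were higher in band 4, against 9.47% of all genes, and 5 were lower, against 14.1% of all genes. Among DMSO cells 2 of 9 were higher, against 8.03% of all genes, and 6 were lower, against 12.8% of all genes. The third higher gene in RO-3066 cells was Tek and the sixth lower gene in DMSO cells was Flt3; each was under 5 CPM in the other library. The median log2 ratio of the genes compared was -1.46 in RO-3066 and -1.79 in DMSO cells, beside -0.10 and -0.03 over all genes.

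Ly6a and Procr declined steeply. From band 1 to band 4, Ly6a stood at 32.3, 23.2, 9.93 and 1.92 CPM in RO-3066 cells, and at 53.6, 33.9, 14.6 and 1.18 CPM in DMSO cells. Its ratio of band 4 over band 1 was 0.0596 (0.0491 to 0.0717) in RO-3066 and 0.0220 (0.0175 to 0.0274) in DMSO cells. Procr stood at 10.7, 6.09, 1.91 and 0.999 CPM in RO-3066 cells and at 12.2, 7.25, 3.35 and 0.361 CPM in DMSO cells. Both stem cell markers thus fell band by band in both libraries. Flt3 fell in DMSO cells, to 0.167 CPM in band 4 against 7.32 CPM in band 1, and had 0.661 CPM in band 4 against 4.57 CPM in band 1 of RO-3066 cells, where it was too low to be counted.

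Kit and Cd34 held their level over the first bands and fell after. Kit had 141, 146, 116 and 50.9 CPM over the bands in RO-3066 cells, and 96.4, 98.7, 85.1 and 33.3 CPM in DMSO cells. Counted per cell and not as CPM, Kit was not lower in band 4 of RO-3066 cells, with 4.47 UMIs against 3.85 in band 1, whereas in DMSO cells it was, with 1.64 against 2.15. Cd34 had 85.1, 89.1, 48.0 and 24.9 CPM in RO-3066 cells, and 115, 113, 72.6 and 23.6 CPM in DMSO cells. Per cell, Cd34 had 2.18 UMIs in band 4 against 2.32 in band 1 of RO-3066 cells, and 1.16 against 2.56 in DMSO cells. Cd48 was highest in the middle bands, with 18.0, 31.0, 23.3 and 4.56 CPM in RO-3066 cells and 57.5, 70.4, 72.2 and 15.9 CPM in DMSO cells. Per cell, Cd48 had 0.401 UMIs in band 4 against 0.491 in band 1 of RO-3066 cells, and 0.786 against 1.28 in DMSO cells.

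Slamf1 and Itga6 went up with Pf4. Slamf1 had 11.7, 11.9, 20.1 and 21.0 CPM over the bands in RO-3066 cells and 11.2, 12.0, 20.8 and 22.0 CPM in DMSO cells, and its values in the 2 libraries overlapped within their intervals in every band. Itga6 had 48.5, 46.0, 52.2 and 73.6 CPM in RO-3066 cells, and 36.3, 38.4, 44.2 and 83.6 CPM in DMSO cells. Band 4 over band 1 was 1.52 (1.44 to 1.60) for Itga6 in RO-3066 and 2.30 (2.16 to 2.45) in DMSO cells. Itga6 was thus higher in RO-3066 cells in the first 3 bands and lower in band 4, while its level over all cells was nearly equal. In CPM, Esam stayed short of 1.5-fold in both libraries. It had 34.9 CPM in band 4 against 24.7 CPM in band 1 of RO-3066 cells, a ratio of 1.41 (1.31 to 1.53), and 18.0 against 19.7 CPM in DMSO cells, a ratio of 0.913 (0.830 to 1.01). Per cell, Esam had 3.06 UMIs in band 4 against 0.672 in band 1 of RO-3066 cells, and 0.888 against 0.439 in DMSO cells. Tek had 5.30, 5.60, 7.02 and 9.34 CPM in RO-3066 cells and 2.43, 2.70, 3.0 and 3.75 CPM in DMSO cells.

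**Figure D3:**
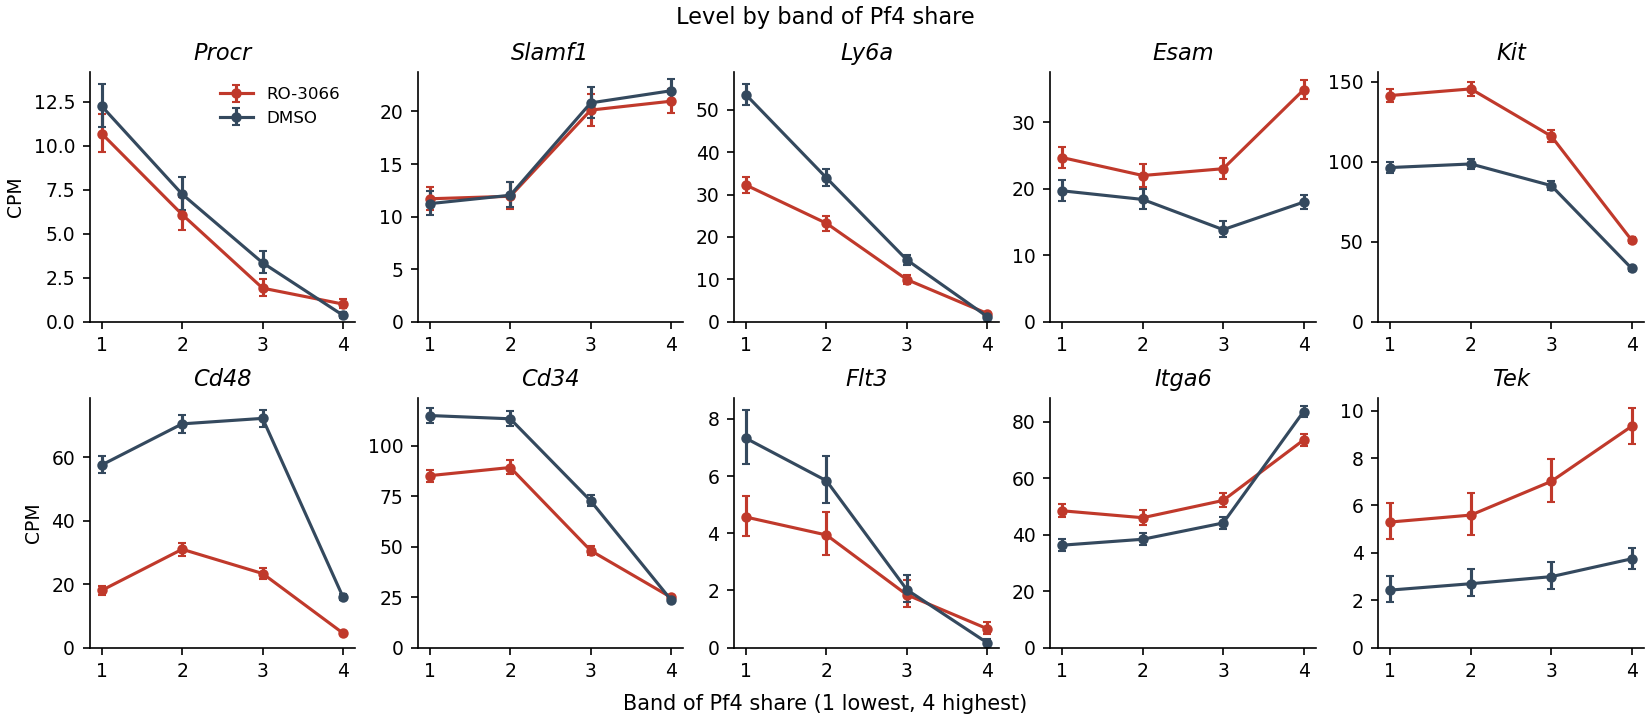
Level of each marker gene in CPM (linear axis from 0, its own scale per gene) over the 4 bands of Pf4 share, in RO-3066 (red) and DMSO (blue) cells, with 95% counting intervals. Procr, Ly6a and Flt3 are lowest in band 4, Slamf1 and Itga6 rise, and the Cd48 and Tek lines of the 2 libraries stay apart in every band.

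The ratio of RO-3066 over DMSO within each Pf4 band was close to that over all cells for some genes and not for others. For Cd48 it was 0.314, 0.440, 0.323 and 0.287 from band 1 to band 4, and for Tek 2.18, 2.07, 2.34 and 2.49. Kit stayed between 1.36 and 1.53. Esam differed more, at 1.25, 1.20, 1.66 and 1.94, and its ratio was largest in the bands rich in Pf4. Ly6a was lower in RO-3066 cells in the first 3 bands, with ratios of 0.602, 0.684 and 0.681, and higher in band 4, at 1.63 (1.23 to 2.17), where both libraries were under 2 CPM. Procr had the same pattern, with 0.873, 0.840 and 0.569 and then 2.77 (1.73 to 4.54) in band 4, from 65 UMIs in RO-3066 and 26 UMIs in DMSO cells. Flt3 had a ratio of 0.624 in band 1 and 3.96 (2.05 to 8.26) in band 4, from 43 and 12 UMIs. At equal depth, Ly6a was found in 1.49% of RO-3066 and 1.45% of DMSO cells of band 4. Procr was found in 0.678% and 0.552% of them, and Flt3 in 0.678% and 0.207%. The intervals of these shares overlapped for each gene, so no order is read in band 4.

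The cells with the most Pf4, above the 97th percentile of DMSO cells (16923 CPM), numbered 89 in RO-3066 and 175 in DMSO. They were among the deepest, with median UMIs of 89951 in RO-3066 and 74273 in DMSO cells. Flt3, which cells of the megakaryocyte lineage should lack, had no UMI after thinning in the 86 RO-3066 and 172 DMSO cells deep enough for it. A limit of 3 counts allows shares of cells with a UMI of up to 3.49% and 1.74%, and the exact upper limits are 4.20% and 2.12%. Flt3 was found in 5.19% (4.04 to 6.54%) of band 1 RO-3066 cells and 6.85% of band 1 DMSO cells, so that in RO-3066 cells the interval overlaps the exact limit. Ly6a also had no UMI after thinning. Without thinning, Ly6a had 8 UMIs or 0.935 CPM in these RO-3066 cells and 9 UMIs or 0.580 CPM in these DMSO cells. Flt3 was not wholly absent without thinning either, at 0.117 CPM in RO-3066 and 0.0645 CPM in DMSO cells. Cd48 fell to 1.87 CPM in RO-3066 and 1.29 CPM in DMSO cells of this kind, a ratio of 1.45 (0.703 to 2.95), so no difference between the treatments in Cd48 was detectable there. Kit stayed apart, at 24.2 CPM in RO-3066 and 9.29 CPM in DMSO cells, a ratio of 2.61 (2.10 to 3.25). Itga6 reached 99.6 CPM in RO-3066 and 120 CPM in DMSO cells.

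Cells were then ordered by the summed Mki67 and Top2a share, genes of dividing cells that peak in G2 and mitosis. Edges were again at the DMSO quartiles (234, 667 and 1234 CPM), and band 1 to band 4 held 411, 1592, 980 and 700 RO-3066 cells. Depth and Pf4 also differed over these bands. The median UMIs per cell were 24785, 43491.5, 36734 and 23938 in RO-3066 cells. In DMSO cells they were 18110, 22798, 27893 and 28869. Pf4 stood at 3842, 5372, 3329 and 1799 CPM in RO-3066 cells. In DMSO cells it stood at 4102, 5440, 5257 and 5444 CPM. The part of depth and Pf4 in the levels below was not tested. Over all cells Mki67 stood at 299 CPM in RO-3066 and 349 CPM in DMSO cells, and Top2a at 409 and 540 CPM. Among RO-3066 cells 1 of 9 was higher in band 4 than in band 1, against 11.6% of all genes, and 2 were lower, against 2.87% of all genes. In DMSO cells 0 of 8 were higher, against 7.45% of all genes, and 2 were lower, against 2.43% of all genes.

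Procr was the gene counted lower in band 4 of both libraries. It stood at 4.50 CPM in band 4 against 10.5 CPM in band 1 of RO-3066 cells, and at 3.93 against 7.76 CPM in DMSO cells. With band edges at tertiles its log2 ratio in RO-3066 cells was -0.42, against -1.06 here, and it was no longer counted. Over all cells, the fall lay between band 1 and band 2. Bands 2 to 4 lay between 3.55 and 4.50 CPM in RO-3066 and between 3.63 and 3.95 CPM in DMSO cells. Within Pf4 band 1 alone, Procr stood at 16.8, 10.8, 8.78 and 9.13 CPM over these bands in RO-3066 cells. In DMSO cells it stood at 15.7, 12.3, 9.98 and 11.5 CPM there. The part of Pf4 in the fall was not tested. Esam was lower in band 4 of RO-3066 cells, with 15.96 against 30.5 CPM, a ratio of 0.524 (0.450 to 0.609). In DMSO cells Esam had 15.3 against 22.6 CPM, a ratio of 0.677 (0.611 to 0.751) that is short of the fold counted on CPM plus 1. In band 4, Esam did not differ between the treatments beyond counting error (ratio 1.04, 0.917 to 1.19), whereas in band 2 the ratio was 1.8 (1.66 to 1.95). Ly6a was lower in band 4 of DMSO cells, with 18.4 against 34.4 CPM, and had 18.9 against 23.0 CPM in RO-3066 cells. Tek was the gene counted higher in RO-3066 cells, with 7.33 CPM in band 4 against 4.44 CPM in band 1, from 158 and 52 UMIs. Tek was no longer counted with tertile edges (log2 ratio 0.15) or with bands from thinned cells (0.10).

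Between band 4 and band 1, Kit, Cd34 and Cd48 were nearly level, and Itga6 and Slamf1 were higher without reaching the fold counted. Flt3 was under 5 CPM in these bands of both libraries and was not counted. Kit had 123 CPM in band 4 against 120 CPM in band 1 of RO-3066 cells, and 76.2 against 79.0 CPM in DMSO cells. Cd34 had 66.8 against 66.0 CPM in RO-3066 cells and 70.1 against 77.4 CPM in DMSO cells. Itga6 had 62.9 against 47.0 CPM in RO-3066 cells, a ratio of 1.34 (1.21 to 1.48), and 66.1 against 48.9 CPM in DMSO cells, a ratio of 1.35 (1.27 to 1.44). Cd48 lay between 13.9 and 18.1 CPM over the bands in RO-3066 cells and between 41.5 and 51.0 CPM in DMSO cells, with a ratio of RO-3066 over DMSO of 0.372, 0.321, 0.354 and 0.334 from band 1 to band 4. The lower Cd48 level was therefore of like size at each level of Mki67 and Top2a.

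**Figure D4:**
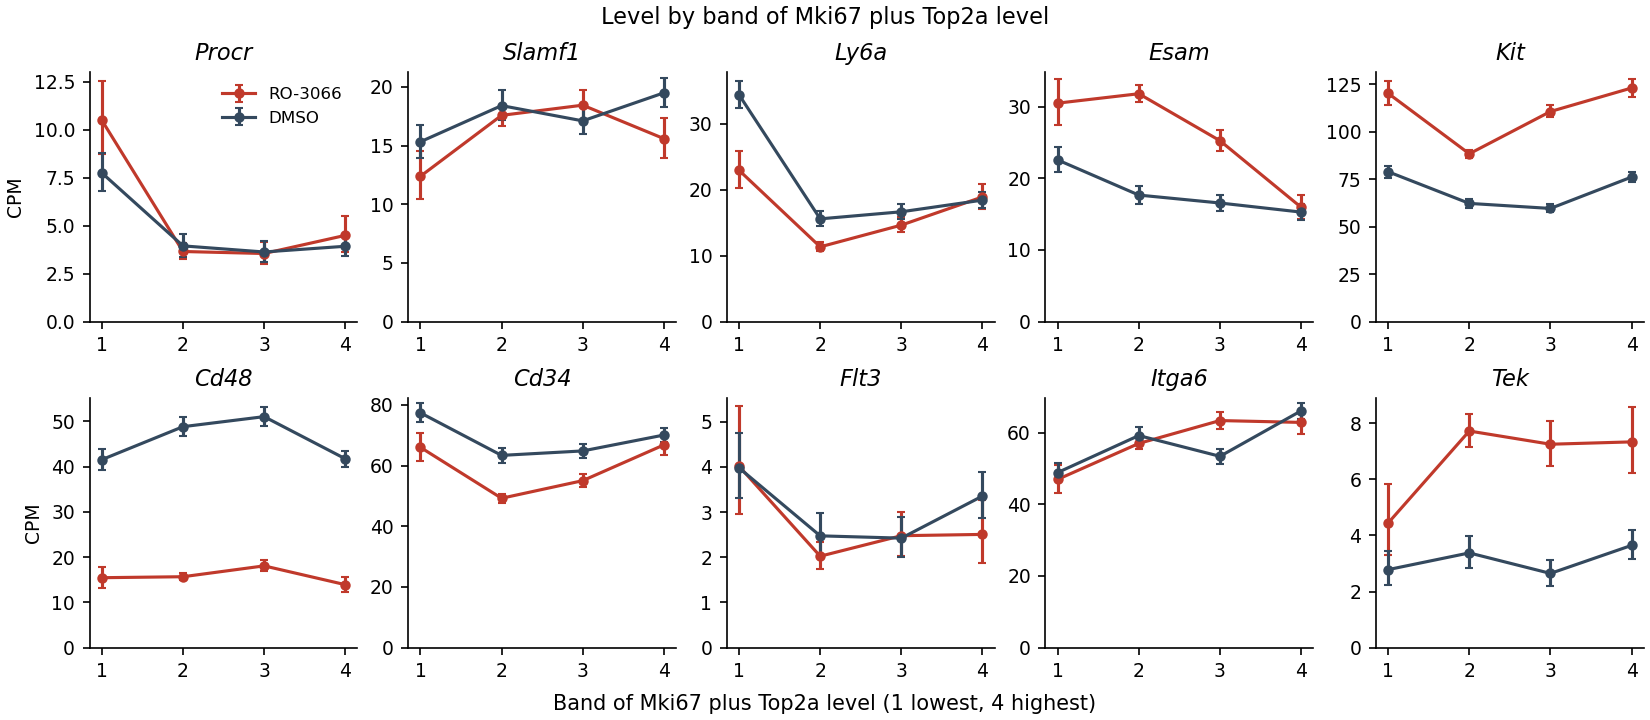
Level of each marker gene in CPM (linear axis from 0, its own scale per gene) over the 4 bands of summed Mki67 and Top2a share, in RO-3066 (red) and DMSO (blue) cells, with 95% counting intervals. Procr drops after band 1 in both libraries, Esam declines to 15.96 CPM in band 4 of RO-3066 cells, and Cd48 keeps about the same distance between the libraries throughout.

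Crossing both sets of bands gave 16 groups of cells in each library. Cd48 was lower in RO-3066 cells in 16 of 16 groups, with log2 ratios of -2.19 to -0.95 and a median of -1.66. Tek was higher in 16 of 16, with log2 ratios of 0.09 to 1.35 and a median of 0.96. Kit was higher in 15 groups, Esam in 14 and Itga6 in 13, while Cd34 was lower in 14 and Ly6a in 13. Slamf1 was higher in 8 and lower in 8. The groups are made of cells of the same 2 libraries and are not replicates.

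Some pairs of marker genes moved together over the groups of cells, and others moved in opposite directions. Over the 16 groups, the log2 levels of Ly6a and Cd34 had a Pearson r of 0.944 in RO-3066 and 0.977 in DMSO cells, and those of Procr and Itga6 one of -0.813 and -0.921. Esam went with none of the others, its r with them lying between -0.462 and 0.327. Among 5145 genes of at least 20 CPM in both libraries, those most like Kit were Myb, a transcription factor of progenitors, with r of 0.976 in RO-3066 and 0.993 in DMSO cells, and Fut8, a fucosyltransferase, with 0.986 and 0.973. For Cd34 they were the adhesion receptor gene Adgrl4, with 0.983 and 0.993, and Ptpn18, a tyrosine phosphatase, with 0.979 and 0.989. For Itga6, Ctbp1, a corepressor, was among the most alike, with 0.949 and 0.948. Each r is a description over 16 groups that share their library and differ in depth. The groups are cut by Pf4, so genes that both fall with Pf4 can have a high r for that reason alone. The part of Pf4 in each r was not tested.

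Which of the genes occurred in the same cell was then asked at 10000 UMIs per cell, in 3559 RO-3066 and 5752 DMSO cells. A cell had 2.21 ± 1.20 of the 10 genes in RO-3066 and 2.19 ± 1.24 in DMSO (mean ± SD over cells), and none in 6.38% and 8.10% of cells. For each of the 45 pairs the cells with both genes were set against the number expected from multiplying their shares, and 43 pairs in each library had at least 10 cells expected. The median of observed over expected was 1.0 in RO-3066 and 1.01 in DMSO cells. In RO-3066 cells 3 pairs were at least 1.5-fold above expectation and 3 as far below, against 4 and 4 in DMSO cells.

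Procr and Ly6a had the highest ratio of the pairs counted in both libraries. Both were found in 90 RO-3066 cells where 35.3 were expected, a ratio of 2.55 (2.05 to 3.13), and in 150 DMSO cells where 57.7 were expected, a ratio of 2.60 (2.2 to 3.05). Since both genes fall with Pf4, expectations were also summed within the 16 groups, and the ratios were then 1.84 (1.48 to 2.26) and 1.71 (1.44 to 2.0). Procr with Flt3, also a gene of progenitors, lay above expectation in DMSO cells. They shared 26 cells where 12.3 were expected, a ratio of 2.11 (1.38 to 3.09), and within the 16 groups 1.35 (0.880 to 1.97). This pair had fewer than 10 cells expected in RO-3066 cells and was not counted there. Procr and the progenitor gene Cd48 occurred together less often than expected, in 16 RO-3066 cells where 27.4 were expected and in 56 DMSO cells where 97.7 were expected. In RO-3066 cells this was not seen at 20000 UMIs per cell, where the log2 of observed over expected was 0.00096, against -0.78 at 10000 UMIs. Ly6a with Cd48 had a ratio of 0.829 (0.628 to 1.07) in RO-3066 and 0.639 (0.551 to 0.737) in DMSO cells, and Esam with Cd48 one of 0.717 and 0.737. Cd48 was found with Cd34 more often than expected, at 1.35 (1.18 to 1.53) in RO-3066 and 1.31 (1.23 to 1.40) in DMSO cells. Within the 16 groups this ratio was 1.23 in each library.

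Slamf1 and Flt3 had the lowest ratio in both libraries. They occurred together in 3 RO-3066 cells where 14.0 were expected, a ratio of 0.214 (0.0441 to 0.625), and in 6 DMSO cells where 29.5 were expected, a ratio of 0.204 (0.0747 to 0.443). Within the 16 groups the ratios were 0.257 and 0.266. Flt3 went with Cd34, at 1.63 (1.29 to 2.04) in RO-3066 and 1.8 (1.54 to 2.09) in DMSO cells, and with Ly6a, at 1.60 and 1.58. Within the groups the ratios with Cd34 were 1.43 and 1.45, and those with Ly6a were 1.21 and 1.03. Slamf1 with Cd34 stood at 0.729 (0.610 to 0.864) in RO-3066 and 0.653 (0.572 to 0.743) in DMSO cells, and within the groups at 0.783 and 0.725. RNA of the CD150 gene and RNA of the progenitor genes Flt3 and Cd34 thus shared fewer cells than their shares give, in both libraries.

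**Figure D5:**
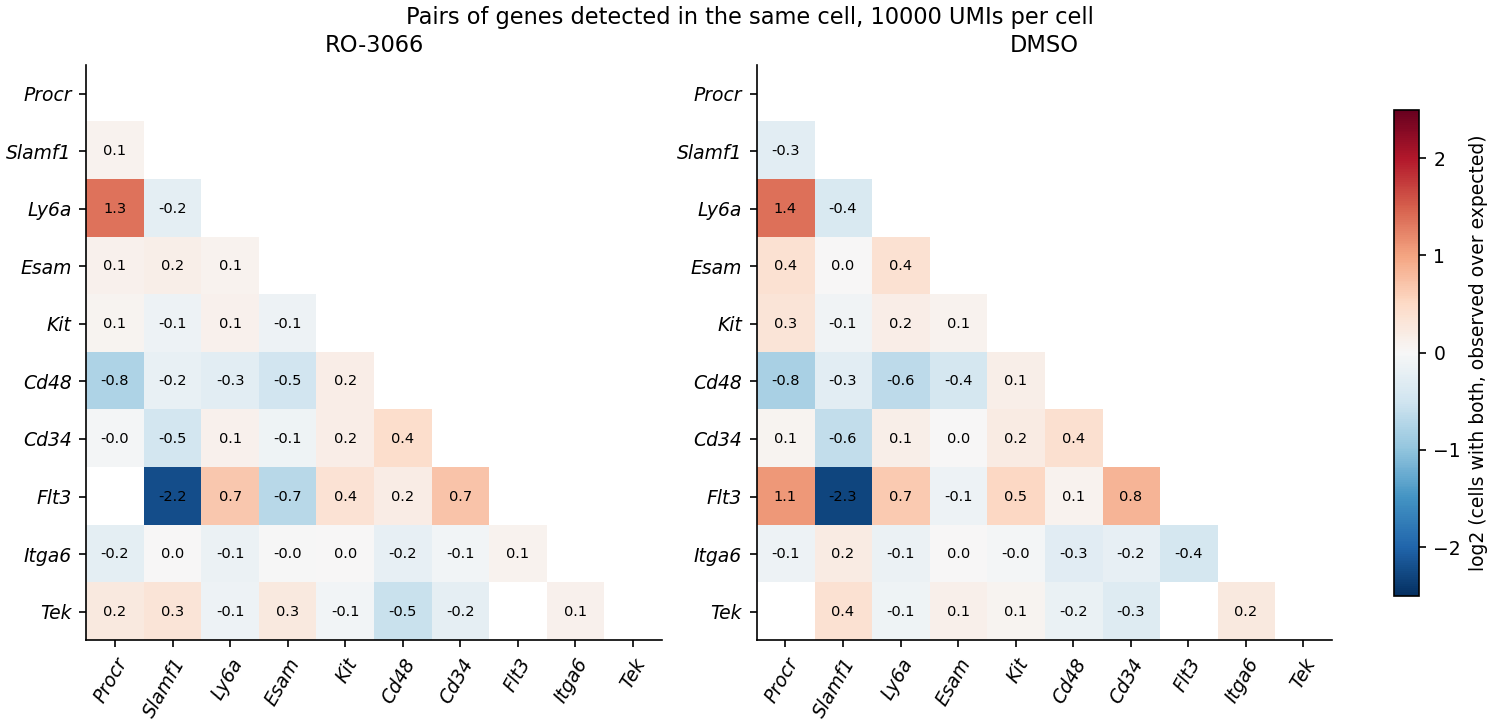
For each pair of marker genes, the log2 of cells with both genes observed over expected at 10000 UMIs per cell, in RO-3066 (left) and DMSO (right) cells; blank squares had fewer than 10 cells expected. Procr with Ly6a is the darkest red square in both panels (ratios 2.55 in RO-3066 and 2.60 in DMSO) and Slamf1 with Flt3 the darkest blue (0.214 and 0.204).

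Combinations used in sorting were counted as RNA. Cells with Cd48 and without Slamf1 made up 10.9% of RO-3066 cells (9.92 to 12.0%) and 26.1% of DMSO cells (25 to 27.3%). Cells with Slamf1 and without Cd48 made up 10.9% (9.87 to 11.9%) and 10.4% (9.60 to 11.2%). The difference between the libraries thus lay on the Cd48 side of this pair. Kit with Ly6a was found in 10.8% of RO-3066 and 9.86% of DMSO cells, and with Slamf1 added and Cd48 absent in 0.955% (0.662 to 1.33%) and 0.904% (0.676 to 1.18%). Procr with Slamf1 was found in 0.815% of RO-3066 and 0.661% of DMSO cells, again with overlapping intervals. A cell without a UMI of a gene at this depth may still carry its transcript, so these shares are not shares of cells with or without the protein.

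By Pf4 band, Kit with Ly6a was found in 16.7% of band 1 and 0.814% of band 4 RO-3066 cells, and in 18.2% and 0.759% of DMSO cells. Slamf1 without Cd48 went the other way, in 8.75% of band 1 and 15.7% of band 4 RO-3066 cells, and in 6.85% and 15.8% of DMSO cells. Cd48 without Slamf1 was found in 2.71% of band 4 RO-3066 cells and 13.9% of band 4 DMSO cells. In the highest Mki67 plus Top2a band the same combination was found in 7.53% of RO-3066 and 23.3% of DMSO cells.

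The genes around the markers were read in lists. Of all 9339 genes compared between the treatments, 5.41% were higher in RO-3066 cells and 2.2% were lower. Of 20 ligands and direct partners, 11 were compared, 3 were at least 1.5-fold higher in RO-3066 cells and 0 lower. Among them were Flt3l, the ligand of Flt3 (11.8 CPM in RO-3066, 7.14 CPM in DMSO), and Tie1, the sister receptor of Tek (47.1 and 24.2 CPM). Angpt1, the ligand of Tek, was nearly equal, at 201 CPM in RO-3066 and 198 CPM in DMSO cells, and Itgb1, a partner subunit of Itga6, had 162 and 202 CPM. Kitl, the ligand of Kit, was under 5 CPM. Of 27 genes of Kit and Flt3 signalling 26 were compared and 0 passed 1.5-fold in either direction, with a median log2 ratio of 0.20. The largest ratios in this list were those of Socs2, a feedback inhibitor, at 0.746 (0.724 to 0.769), and of Vav1 and Inpp5d, at 1.41 and 1.37.

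Among 45 other surface genes of stem and progenitor cells, 29 were compared. Of these, 10 were higher in RO-3066 cells, against 5.41% of all genes, and 0 were lower, against 2.2% of all genes. The median log2 ratio of this list was 0.32. Tie1 and Cd44, a hyaluronan receptor (38.3 CPM in RO-3066, 20.4 CPM in DMSO), had the largest ratios among those of at least 20 CPM. Cd38, an ectoenzyme found on mouse stem cells, had 7.82 CPM in RO-3066 and 1.99 CPM in DMSO cells.

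Markers of other cell types were read beside these values, and beside the 5.41% of all genes that were higher and the 2.2% that were lower. Of 25 megakaryocyte and platelet genes 21 were compared, 8 were higher in RO-3066 cells and 0 lower, led by Treml1 (ratio 2.73), Mmrn1 (1.96) and Nrgn (1.90), while Pf4 itself stood at 4256 CPM in RO-3066 and 5154 CPM in DMSO cells. Endothelial cells also carry Tek, Esam and Procr. The 14 endothelial and stromal genes summed to 156 CPM in RO-3066 and 142 CPM in DMSO cells, with 3 of 5 compared higher (Tie1, Emcn and Col1a2). The defining endothelial gene Cdh5 had 0.230 CPM in RO-3066 and 0.268 CPM in DMSO cells, Cldn5 had 0 and 2 UMIs, and the stromal gene Pdgfra had 0 UMIs in both. Among 15 erythroid genes 5 were compared, with 2 higher (Hbb-bt and Blvrb) and 1 lower (Tfrc), and their sum was 1010 CPM in RO-3066 and 610 CPM in DMSO cells. The 14 neutrophil and monocyte genes summed to 150 and 149 CPM, with 2 compared and 1 higher (Lyz2). The 14 lymphoid genes summed to 27.8 and 15.9 CPM, with Cd79b alone compared and higher and Cd3e, Cd3g, Il7r and Ncr1 at 0 UMIs in both libraries. The 11 mast cell and basophil genes summed to 13.8 and 10.1 CPM, with Cpa3 alone compared and higher and Tpsb2 at 0 UMIs in both. The part of these lists in the marker values was not tested.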

How the data were processed

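The 2 droplet libraries of cultured mouse hematopoietic stem cells held RO-3066 or DMSO cells, grouped by the treatment in the labels. The authors deposited UMI counts per gene and barcode, not normalized. The build mm10 and Cell Ranger 5.0.1 stand in the submitters' processing notes, while per the file headers Cell Ranger 7.1.0 wrote the matrices; whether intron reads were counted is not given in the sources used here.

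A barcode was kept if it had 1000 UMIs and 500 genes or more and no more than 10% mitochondrial UMIs (84 RO-3066 and 26 DMSO barcodes failed). Likely doublets, scored by simulated doublets among 50 neighbours, were removed (115 and 301 cells). Counts were summed to CPM, and log2 ratios use a pseudocount of 1. Intervals are exact Poisson, conditional or Clopper-Pearson intervals. Genes named are the 10 markers, for each marker of at least 20 CPM the 2 most alike genes, and in each list the 3 largest ratios; other names were chosen after their values were seen. Some genes that this rule takes are not reported here. The members and lists were chosen with earlier results of these data known. The calculation was tested on simulated data. Python 3.11.15, numpy 2.4.6, scipy 1.17.1, pandas 2.3.3 and scikit-learn 1.9.0 were used.

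Alternatives were other scaling, cell weights, filters, pseudocounts, minimum levels, thinning depths and band edges.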

Additional observations from a re-analysis of the deposited data

How the results depend on the processing

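Across 9 other ways of computing levels, Cd48 stayed lower in RO-3066 cells (log2 ratio -1.63 to -1.28) and Tek higher (0.60 to 1.02), past 1.5-fold in 9 of 9 each; Kit stayed at 0.50 to 0.57, under the fold. The count of genes at least 1.5-fold higher was 1 in place of 2 with all cells weighted alike, with cells thinned to 10000 UMIs, with a pseudocount of 5 and with the 16 groups at the same weight, where Esam lay at 0.48 to 0.58, and it was 1 with a minimum level of 20 CPM, which Tek does not reach. In the highest Mki67 plus Top2a band of RO-3066 cells, 0 genes were counted higher with tertile edges or with bands from thinned cells. The count of lower genes there was 1 with tertile edges (Procr -0.42). Expectations within the 16 groups left 1 pair above 1.5-fold in RO-3066 and 1 in DMSO cells. At 20000 UMIs per cell, which left out 681 RO-3066 and 1691 DMSO cells, 1 pair lay above and 1 below in RO-3066 cells, and Procr with Cd48 turned to a log2 ratio of 0.00096, against -0.78. Shares of Ly6a, Cd34 and Flt3 also changed order at that depth, to 20.1% in RO-3066 against 19.5% in DMSO cells for Ly6a, 57.9% against 56.4% for Cd34 and 5.23% against 4.90% for Flt3. The Procr log2 ratio was 0.22 with all cells weighted alike and 0.09 with thinned cells, against -0.08. The cause of these shifts was not tested. Of 248 single values under alternatives, 177 moved by less than their counting interval. No paired analysis was possible because each treatment has 1 library. Depth limits Procr and Flt3, both under 5 CPM in each library.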

Other observations

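Several surface receptors of myeloid cells, each under the minimum level and named after their values were seen, had more counts in RO-3066 cells. Fcgr3, an Fc receptor, had 302 UMIs in RO-3066 and 40 UMIs in DMSO cells, Fcgr2b 210 and 54, and the sialic acid lectin gene Cd33 126 and 38. The list of 14 neutrophil and monocyte genes, which holds Fcgr3, summed to 150 CPM in RO-3066 and 149 CPM in DMSO cells. No rise of myeloid genes as a set is therefore read from these receptors. Robo4, a guidance receptor that mouse stem cells carry, had 223 UMIs in RO-3066 and 89 UMIs in DMSO cells. Cd53, a tetraspanin of blood cells, went the other way, with 123 UMIs in RO-3066 and 248 UMIs in DMSO cells. Il7r, a receptor of lymphoid progenitors, had 0 UMIs in both libraries.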
